A study of Mus musculus with 22 samples.

Results

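Chromatin accessibility was described at 9 genes of the insulin signalling pathway in adipocyte nuclei of lean mice, obese mice and mice that had lost weight. The genes were Insr, Irs1, Irs2, Grb14, Pik3r1, Akt2, Tbc1d4, Slc2a4 and Foxo1, 9 of 21884 protein-coding genes, and they were chosen by name for their place in the pathway. The locus of a gene was its span in the GRCm38 mouse genome plus 20 kb on each side, and every peak that overlapped it by at least 1 bp in any of the 22 libraries was taken. ATAC-seq, in which a transposase cuts and tags open DNA, was performed on labelled adipocyte nuclei from epididymal adipose tissue. Peaks were called in each library separately, and between 30 and 97 peaks per library fell in the 9 loci.

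All mice were AdipoERCre x NuTRAP (background given as C576BL6 in the labels) and carried AdipoERCre, a tamoxifen-inducible Cre recombinase under the adiponectin promoter, together with NuTRAP, a reporter that Cre switches on and that tags nuclei. All mice, controls included, were gavaged with tamoxifen before the diets began, and the nuclear tag is made only where Cre has acted. Tagged nuclei were captured on streptavidin beads and washed, a pull-down that can carry untagged nuclei. Mice fed a low-fat chow diet were sampled at 18 weeks of age (C, n = 3) or 31 weeks (CC_l, n = 2), and mice fed a high-fat diet (HFD) at the same ages after 12 weeks of HFD (H, n = 3) or 25 weeks of HFD (HH, n = 3). For weight loss, mice were returned to chow for 8 weeks and sampled at 26 weeks (HC, after 12 weeks of HFD, n = 3) or 39 weeks of age (HHC, after 25 weeks of HFD, n = 3), each with an age-matched chow group (CC_s, n = 3, and CCC, n = 2). In those 8 weeks the controls received the same chow as the weight loss mice, a different product from the low-fat diet. The library codes in the labels begin differently in the short and the long arm, so duration of HFD, age and any difference between these sets of libraries cannot be told apart between arms. Groups were therefore compared within arms or averaged over both, and the single comparison of effects between arms carries that limit.

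Insulin binds its receptor tyrosine kinase, which phosphorylates the insulin receptor substrates. These adaptors recruit phosphoinositide 3-kinase, whose lipid product brings AKT kinases to the membrane. In adipocytes AKT2 phosphorylates the Rab GTPase-activating protein TBC1D4, which lets vesicles carrying the glucose transporter GLUT4 reach the cell surface, and it keeps the transcription factor FOXO1 out of the nucleus. Adipocyte insulin resistance in obesity involves several of these steps.

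The libraries held between 40528 and 60523 peaks, which covered between 128 and 299 Mb. The deposited lists give summed coverage per peak and no read counts, so the depth of each library is unknown and no counting interval can be given. Libraries HH 1, HC 3 and HHC 3 covered the least (128 to 140 Mb, against 162 Mb or more in the other 19 libraries), and the main results that rest on them are also given without them. All 12 adipocyte marker genes (Adipoq, Plin1, Pparg and others) had a promoter peak in every library. Their mean log2 promoter signal was 19.96 to 20.02 in C and 20.34 to 20.44 in H, without overlap. In the other pairs it overlapped, as with 19.98 to 20.27 in CC_l and 20.06 to 20.5 in HH.

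Markers of other cell types also differed between some groups. Of 6 mesothelial markers, 2 to 4 had a promoter peak in C and 2 in each CC_l library, against 0 to 1 in H and HH. The mean log2 signal of that list was 14.38 to 14.89 in C and 14.45 to 14.93 in CC_l, and 14.30 to 14.31 in H and 14.30 in HH, where 14.30 is the floor. After weight loss it was 14.81 to 15.41 in HHC against 14.35 to 14.50 in CCC, without overlap, and 14.81 to 15.59 in HC against 14.51 to 15.24 in CC_s. Of its defining markers Lrrn4 had a promoter peak in 16 libraries, Wt1 in 14, Upk3b in 7, Msln and Krt19 in 3 each and Upk1b in 0. Macrophage markers, with 2 to 7 of 12 peaks per library, averaged 14.89 to 15.09 in C and 14.61 to 14.83 in H, without overlap. They averaged 14.71 to 14.75 in CC_l and 14.64 to 14.83 in HH, which overlapped. Only Cd68 and Cd14 of that list had a promoter peak in all 22 libraries. Endothelial markers, with 2 to 10 of 10 (10 in HH 1), averaged 14.45 to 14.54 in CC_s and 14.56 to 15.14 in HC, without overlap. They averaged 14.43 to 14.8 in CCC and 14.44 to 15.47 in HHC, which overlapped. Lymphocyte markers, with 0 to 2 of 9, averaged 14.58 to 14.64 in CCC and 14.30 to 14.45 in HHC, without overlap. In all other pairs the macrophage, endothelial and lymphocyte values overlapped or touched. Progenitor markers had 4 to 8 of 8. The part of these other cell types in the differences below was not tested.

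All 9 genes were accessible in these adipocyte nuclei. A peak lay within 2000 bp of a start site in all 22 libraries for 8 of the genes and in 21 libraries for Grb14. Over all protein-coding genes, 43.6% had such a peak in all 22 libraries. Per kb of locus and per 1000000 of the summed signal of a library, Pik3r1 was highest with a median over libraries of 4.56, the 99.0th percentile of all loci. Irs2 (3.65), Akt2 (3.41), Slc2a4 (3.4), Foxo1 (2.70), Irs1 (2.43), Tbc1d4 (1.59) and Insr (1.40) followed, all above the median of all loci of 0.48. Grb14 was at 0.27, below that median. This is the order of the medians over the 22 libraries. In every H, HC and HH library the value of Irs2 was above that of Pik3r1 (3.53 to 3.96 against 2.25 to 3.75 in H), and in every chow library that of Pik3r1 was above Irs2. Peaks covered a median of 77.2% of the Foxo1 locus, 74.3% of both the Irs2 and the Pik3r1 locus and 8.2% of the Grb14 locus, against 10.6% for the median locus. The Akt2 locus holds 3 other protein-coding genes and the Slc2a4 locus 2, Ybx2 and Cldn7, so those sums are not of a single gene.

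To compare groups, the total signal of all peaks in a locus was summed, each library was mapped by rank onto the mean distribution of all libraries, and the log2 of that value was tested with limma over all loci. A log2 value is therefore a level relative to the other loci of the same library, and in bulk nuclei, fewer nuclei with an open locus and less opening per nucleus cannot be told apart. P-values measure the spread between these libraries, which the labels call biological replicates. Where groups are said not to overlap, this describes 2 or 3 libraries per group and is not a test. For locus signal, the share of all loci without overlap was not counted. The first question was whether obesity changed accessibility at these loci, in H against C and HH against CC_l, and over both durations together. Over both durations, 3 of the 9 loci passed an adjusted p of 0.05, namely Irs1 and Pik3r1, which were lower, and Foxo1, which was higher in obesity. The background over all loci was 15.3% (2727 of 17797, 1523 of them higher), and 7 of the 9 loci had an unadjusted p under 0.05 against 31.6% of all loci. The median difference was 0.22 over the 9 loci and -0.02 over all loci. At 12 weeks alone 3 of the 9 passed, Grb14 higher and Irs1 and Pik3r1 lower, against 11% of all loci. At 25 weeks alone none of the 9 passed in limma and 2 had an unadjusted p under 0.05, where 0.00580% of all loci passed (1 of 17235, with 12.1% at an unadjusted p under 0.05).

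**Figure D1:**
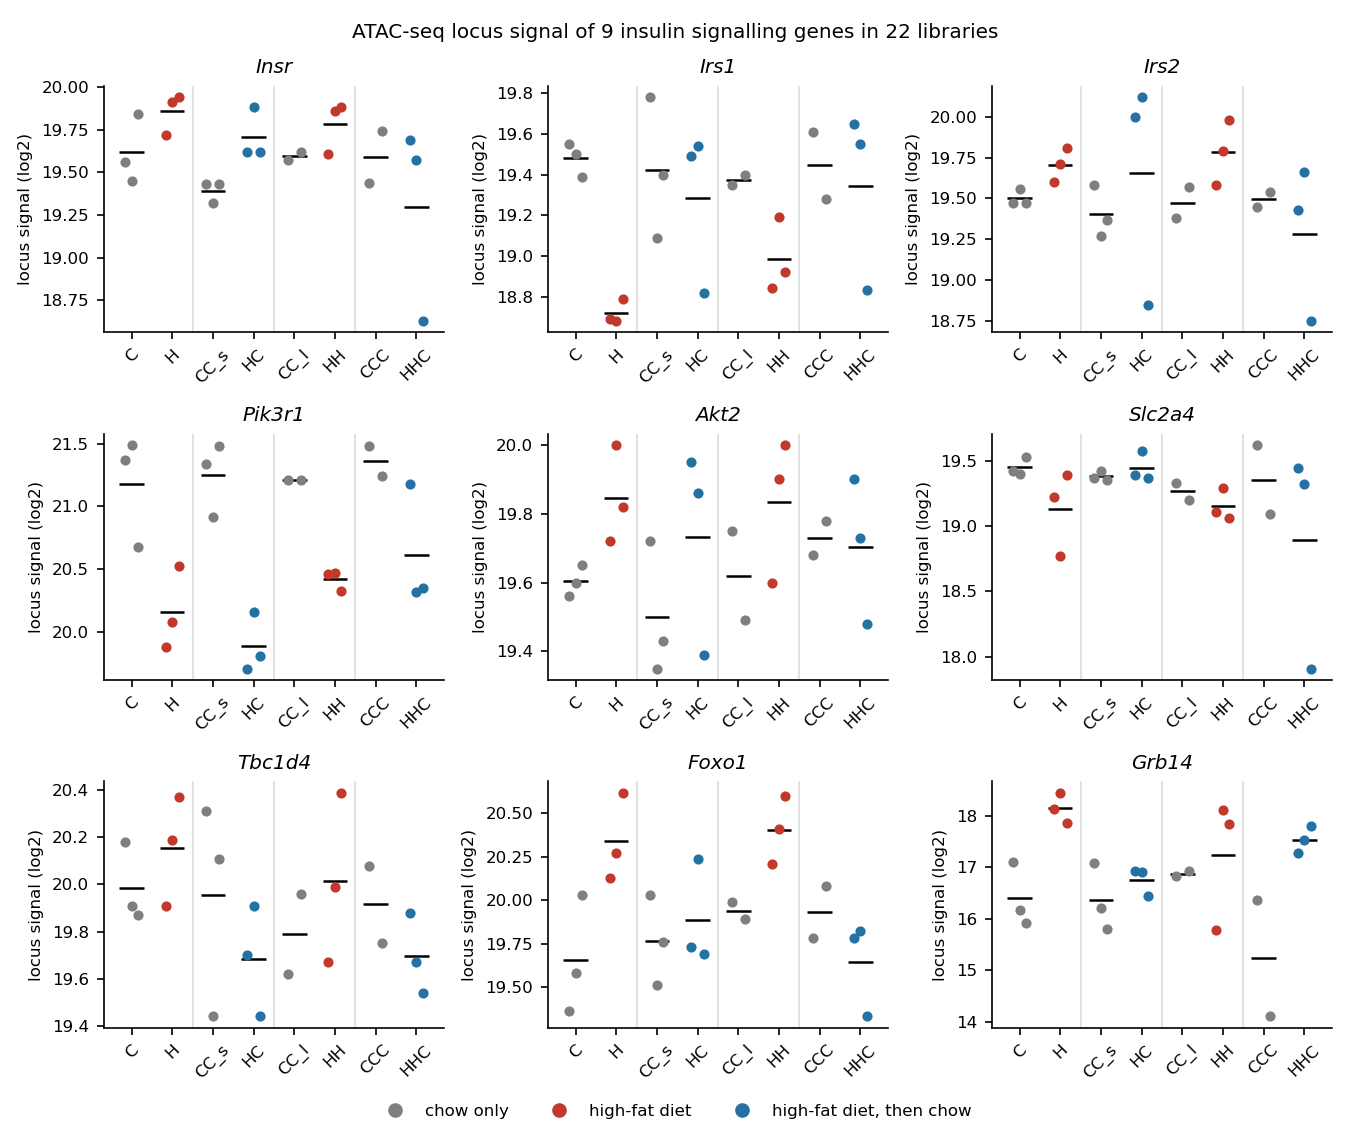
Rank-mapped log2 total signal of the 9 loci in each of the 22 libraries, by group (grey, chow only; red, HFD; blue, HFD then chow; black bar, group mean). Irs1, Pik3r1 and, narrowly, Slc2a4 sit lower in every H library than in every C library. Grb14, Foxo1 and, narrowly, Irs2 and Akt2 sit higher.

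The second question was whether loci still differed from age-matched controls after 8 weeks back on chow. None of the 9 passed in limma in HC against CC_s, in HHC against CCC or over both durations, with 1, 2 and 2 of them at an unadjusted p under 0.05. Over all loci 0%, 0% and 0.0438% (8 of 18252) passed, with 9.0%, 4.04% and 13.4% at an unadjusted p under 0.05. The difference between the weight loss effect and the obesity effect was tested directly over both arms and passed at no locus in the genome (0% of all loci, with 10.2% at an unadjusted p under 0.05, and 1 of the 9). Likewise, the effect of HFD in the long arm differed from that in the short arm at 0% of loci in limma (5.03% at an unadjusted p under 0.05, and 0 of the 9). Between chow groups of different age, CC_s against C and CCC against CC_l, 0% of loci passed in limma (917 and 1641 at an unadjusted p under 0.05) and none of the 9 had an unadjusted p under 0.05.

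Insr, chr8:3122061-3279617 on the minus strand, encodes the insulin receptor. Its locus read 19.56, 19.45 and 19.84 in C, 19.72, 19.91 and 19.94 in H, 19.57 and 19.62 in CC_l, and 19.61, 19.86 and 19.88 in HH. The H and C values overlapped, as did those of HH and CC_l. The difference over both durations was 0.22 (SE 0.10, adjusted p = 0.152), or 0.26 without HH 1 (adjusted p = 0.0763), and neither passed. After weight loss it read 19.62, 19.88 and 19.62 in HC against 19.43, 19.32 and 19.43 in CC_s, and 19.69, 19.57 and 18.63 in HHC against 19.44 and 19.74 in CCC. Every HC library lay above every CC_s library, while HHC overlapped CCC with HHC 3 lowest. The difference was 0.31 (SE 0.15, adjusted p = 0.580) in the short arm, -0.29 (SE 0.36, adjusted p = 0.858) in the long arm and 0.01 (SE 0.19, adjusted p = 0.983) over both. Without HC 3 and HHC 3 it was 0.35 (adjusted p = 0.468), 0.04 (adjusted p = 0.969) and 0.20 (adjusted p = 0.431), so the sign in the long arm rested on HHC 3. Of 78 summit sites in the locus, 58 were found in 1 library and 5 in 11 or more. The most recurrent lay 0.02 kb inside the 5′ end, in 22 libraries, and in an intron at 58.45 kb, in 21. One intronic region of 9.36 kb, chr8:3138641-3148004, carried a peak in H 1, H 2, H 3, HH 2, HH 3 and HC 2 and in none of the other 16 libraries. It was 1 of 3 regions, of the 29 in the 9 loci that had a peak in either group, with a peak in every H and no C library, where 3.24% of all regions were gained in this sense and 2.27% lost. None of the 29 was lost. In the other pairs none of 25 to 30 regions was gained or lost, where over all regions 1.92% were gained and 2.80% lost in HH against CC_l, 0.282% and 1.37% in HC against CC_s, and 0.442% and 2.10% in HHC against CCC.

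Irs1 and Irs2 encode the main insulin receptor substrates of adipocytes, which pass the signal from the receptor to phosphoinositide 3-kinase. Their promoter windows are shown because these related genes share letters there. Each window runs from 250 bases before to 50 bases after the RefSeq start (GRCm38.p6), at chr1:82291390-82291689 and chr8:11008880-11009179, both read 5′ to 3′ along the minus strand. Capitals mark the GC box (GGGCGG), the CCAAT box (CCAAT), the E-box CACGTG and TGTTTTG, the core of an insulin response element, on either strand.
Irs1 promoter: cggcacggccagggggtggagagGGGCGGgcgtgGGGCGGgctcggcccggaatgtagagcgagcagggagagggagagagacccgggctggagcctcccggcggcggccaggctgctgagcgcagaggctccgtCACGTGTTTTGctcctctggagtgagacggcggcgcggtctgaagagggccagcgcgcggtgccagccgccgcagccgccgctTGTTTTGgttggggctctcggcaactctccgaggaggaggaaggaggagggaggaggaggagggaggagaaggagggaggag
Irs2 promoter: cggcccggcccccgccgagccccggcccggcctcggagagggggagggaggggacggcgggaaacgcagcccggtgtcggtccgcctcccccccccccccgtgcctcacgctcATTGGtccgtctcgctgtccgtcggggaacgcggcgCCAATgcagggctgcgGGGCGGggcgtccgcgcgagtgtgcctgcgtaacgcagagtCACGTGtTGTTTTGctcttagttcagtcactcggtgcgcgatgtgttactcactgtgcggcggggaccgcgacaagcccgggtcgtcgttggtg
Both windows hold an E-box beside TGTTTTG. The E-box lies within a shared run of 10 bases, GTCACGTGTT, that begins at position 134 in Irs1 and 205 in Irs2, and TGTTTTG runs past its end in both. In Irs1 the 2 motifs overlap, and TGTTTTG occurs again further down. Of 32851 promoter windows of this length, 7.15% held CACGTG, 6.28% held TGTTTTG and 0.408% (134 windows) held both. In the GC content of 71.3% and 72.0% they were alike, against a median of 52.7% over all windows. A peak summit fell in the window in 9 libraries at Irs1 (position 175), none of them of group C, and in 21 libraries at Irs2 (position 189). The most recurrent Irs1 summit lay outside the window, 0.45 kb inside the gene, in 11 libraries that included all 3 of C.

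The Irs1 locus, around chr1:82233101-82291416 on the minus strand, lost accessibility under HFD. It read 19.55, 19.50 and 19.39 in C and 18.69, 18.68 and 18.79 in H. It read 19.35 and 19.40 in CC_l and 18.84, 19.19 and 18.92 in HH. Every HFD library lay below every chow library of its arm. The difference was -0.76 (SE 0.11, adjusted p = 0.0126, 1.69-fold lower) at 12 weeks, -0.39 (SE 0.17, adjusted p = 0.426) at 25 weeks and -0.57 (SE 0.09, adjusted p = 0.00325, 1.49-fold lower) over both. The effects in the long and the short arm differed by 0.37 (SE 0.17, adjusted p = 0.929). The call at 12 weeks was lost without H 1, H 2 or C 2 (adjusted p = 0.0548, 0.0574 and 0.0578). Over both durations it was kept without any single library (-0.54 without HH 1, adjusted p = 0.00378), and with the maximum signal of a peak in place of the total the difference was -0.05 (adjusted p = 0.849).

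The loss of signal at Irs1 went with a loss of covered length, and at 12 weeks also with lower peaks. The maximum signal in the locus, not scaled between libraries, was 254, 264 and 327 in C and 94, 104 and 139 in H. The median maximum over all peaks of a library was 75, 73 and 107 in C and 51, 47 and 64 in H. In HH and CC_l the maximum signal in the locus overlapped. The parts of length and height in the loss were not tested. Peaks covered 48.2, 60.1 and 64.6 kb of the locus in C and 32.1, 30.1 and 27.8 kb in H, and 38.2 and 46.0 kb in CC_l against 16.4, 44.5 and 25.9 kb in HH. HH 2 lay between the CC_l libraries and the other 5 HFD libraries lay below the controls of their arm. As a quantile-normalised percent of the locus, the difference over both durations was -15.63 percentage points (SE 3.09, adjusted p = 0.0180), where 7.27% of all loci passed (after weight loss 0.00528%, and none of the 9). Without HH 1 it was -14.07 (adjusted p = 0.0185). It was lost without CC_l 1 (adjusted p = 0.0655) or CC_l 2 (adjusted p = 0.0624). Of the locus, 11.6 kb (11.8%) lay in a peak in every C library and in no H library, against 0.563% over all loci. For HH against CC_l this was 3.0 kb (3.06% against 0.638%). The main region of the locus, chr1:82229197-82295480 (66.28 kb, which also overlaps the gene Gm9747), read 19.54, 19.60 and 19.51 in C and 18.72, 18.73 and 18.79 in H, a difference of -0.81 (SE 0.09, adjusted p = 0.00447) that fell short of the 2-fold threshold set for regions.

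After weight loss Irs1 read 19.49, 19.54 and 18.82 in HC against 19.78, 19.09 and 19.40 in CC_s, and 19.65, 19.55 and 18.83 in HHC against 19.61 and 19.28 in CCC. The groups overlapped, and the lowest value of each weight loss group was the library that covered least. The difference over both durations was -0.12 (SE 0.21, adjusted p = 0.775, 95% interval -0.54 to 0.30). The change of the effect from obesity to weight loss was 0.45 (SE 0.23, adjusted p = 0.529, 95% interval -0.01 to 0.91), so a return was not shown by this test. Without HC 3 and HHC 3 the weight loss difference was 0.12 (adjusted p = 0.734). At the promoter alone Irs1 read 18.41, 18.84 and 17.81 in HC against 19.17, 18.44 and 19.02 in CC_s, and 18.89, 18.33 and 18.11 in HHC against 18.94 and 18.95 in CCC. HHC lay below CCC without overlap, and HC overlapped CC_s. The promoter difference was -0.52 (SE 0.25, adjusted p = 0.560) after weight loss, or -0.30 without HC 3 and HHC 3 (adjusted p = 0.759), and -0.40 (SE 0.13, adjusted p = 0.136) in obesity.

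**Figure D2:**
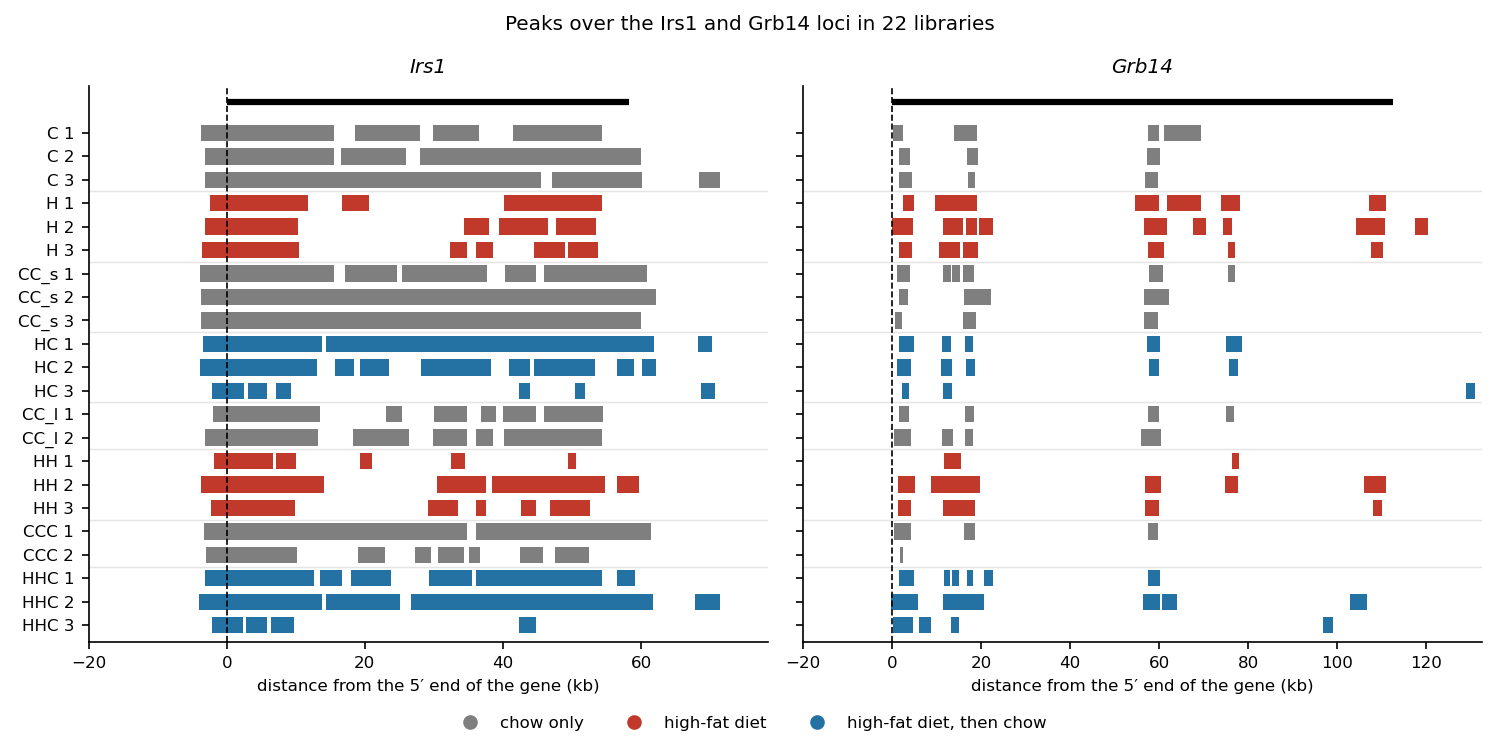
Peaks over the Irs1 and Grb14 loci in each library (horizontal bars; x axis, distance from the 5′ end of the gene in kb along its strand; black bar on top, gene span; dashed line, 5′ end; grey, chow only; red, HFD; blue, HFD then chow). At Irs1 the 3 H libraries cover 27.8 to 32.1 kb of the locus against 48.2 to 64.6 kb in C, and at Grb14 the peaks are short and scattered, with 6.0 kb covered in every H and no C library.

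The Irs2 locus, around chr8:10984681-11008458 on the minus strand, lay on the other side of its controls. It read 19.47, 19.56 and 19.47 in C, 19.60, 19.71 and 19.81 in H, 19.38 and 19.57 in CC_l, and 19.58, 19.79 and 19.98 in HH. Every HFD library lay above every chow library of its arm, by a narrow margin. The difference over both durations was 0.26 (SE 0.09, adjusted p = 0.0751). It passed without HH 1 (0.31, adjusted p = 0.0256) and with flanks of 5 kb (0.48, adjusted p = 0.0432), and was -0.03 (adjusted p = 0.919) on the maximum signal. At the promoter Irs2 read 18.18, 18.22 and 18.00 in C and 19.05, 19.03 and 18.86 in H, a difference of 0.85 (SE 0.16, adjusted p = 0.0582), where 2.28% of all promoters passed. It read 18.19 and 18.63 in CC_l and 17.76, 19.70 and 18.73 in HH, where HH 1 lay below both controls, a difference of 0.32 (SE 0.58, adjusted p = 0.937). Over both durations the promoter differed by 0.58 (SE 0.30, adjusted p = 0.315), or 0.82 without HH 1 (adjusted p = 0.0508). After weight loss the locus read 20, 20.12 and 18.85 in HC against 19.58, 19.27 and 19.37 in CC_s, and 19.43, 19.66 and 18.75 in HHC against 19.45 and 19.54 in CCC, with the lowest values in HC 3 and HHC 3. The difference was 0.25 (SE 0.34) in the short arm, -0.22 (SE 0.30) in the long arm and 0.02 (SE 0.25, adjusted p = 0.976) over both. Without HC 3 and HHC 3 it was 0.66 (adjusted p = 0.249), 0.05 (adjusted p = 0.964) and 0.35 (adjusted p = 0.190). The promoter differed by -0.64 after weight loss (SE 0.46, adjusted p = 0.618), or -0.04 without those libraries (adjusted p = 0.965).

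Grb14 encodes an adaptor that binds the activated insulin receptor and inhibits its kinase, and it was the least accessible of the 9 loci (chr2:64912476-65024987, minus strand). Its RefSeq start lies about 2 kb inside the GENCODE gene, and 19 libraries had a summit upstream of it, at position 91 of the promoter window. That promoter, chr2:65022717-65023016, is shown with a 200-base window around an intronic summit at chr2:65007404-65007603, the site in the region that rose with HFD. Capitals mark motifs as before, in the promoter all GC boxes and in the intron window a CCAAT match.
Grb14 promoter: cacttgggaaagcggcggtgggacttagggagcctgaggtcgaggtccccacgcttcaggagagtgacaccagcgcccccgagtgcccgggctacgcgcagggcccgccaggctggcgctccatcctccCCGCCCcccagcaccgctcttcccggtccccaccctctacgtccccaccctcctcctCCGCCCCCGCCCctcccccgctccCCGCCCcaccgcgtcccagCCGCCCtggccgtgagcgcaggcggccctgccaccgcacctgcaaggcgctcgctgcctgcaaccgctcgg
Grb14 intron summit: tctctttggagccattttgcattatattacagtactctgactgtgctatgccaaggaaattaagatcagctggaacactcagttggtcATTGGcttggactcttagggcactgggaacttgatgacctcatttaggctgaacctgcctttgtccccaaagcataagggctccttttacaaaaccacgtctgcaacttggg
The promoter was 75.3% GC with 5 GC boxes, while the intron window was 45.5% GC with none. Of 43314 summit windows of the same length in library C 1, 18.2% held GGGCGG and 29.6% held CCAAT.

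The Grb14 locus read 17.11, 16.18 and 15.92 in C and 18.14, 18.45 and 17.86 in H. It read 16.84 and 16.92 in CC_l and 15.78, 18.11 and 17.85 in HH. H lay above C without overlap, whereas HH 1 lay below both controls and HH 2 and HH 3 above them. The difference was 1.75 (SE 0.33, adjusted p = 0.0247, 3.35-fold higher) at 12 weeks, 0.37 (SE 0.70, adjusted p = 0.872) at 25 weeks and 1.06 (SE 0.41, adjusted p = 0.109) over both. Without HH 1, the difference was 1.10 at 25 weeks (adjusted p = 0.0747) and 1.42 over both durations (adjusted p = 0.00498). The call at 12 weeks was lost without C 2 (adjusted p = 0.0974), H 2 (0.0930), H 1 (0.0832) or C 3 (0.0548).

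Within the locus an intronic region of 13.92 kb, chr2:65002259-65016175, rose in obesity. It read 15.16, 14.42 and 14.01 in C against 16.72, 16.90 and 16.66 in H, and 15.04 and 15.17 in CC_l against 15.26, 16.77 and 16.81 in HH. All 6 HFD libraries lay above all 5 chow libraries. The difference was 2.23 (SE 0.30, adjusted p = 0.00684, 4.69-fold higher) at 12 weeks, 1.17 (SE 0.52, adjusted p = 0.393) at 25 weeks and 1.70 (SE 0.31, adjusted p = 0.00706, 3.25-fold higher) over both. C 3 had a peak there but ranked at the floor of 14.01, so these folds depend on that floor. Without HH 1 it was 1.68 at 25 weeks (adjusted p = 0.0955), and over both durations it also passed (adjusted p = 0.00102). It was the only region of the 25 tested in the 9 loci that passed over both durations, against 4.21% of all regions. At 12 weeks 3 of 23 passed, against 8.28%. Without C 2 the difference at 12 weeks was 2.17 (adjusted p = 0.0593), and over both durations it was 1.67 without CC_l 1 (adjusted p = 0.0591) and 1.01 on the maximum signal (adjusted p = 0.0876). With only the 20000 strongest peaks of each library it was 0.99 at 12 weeks (adjusted p = 0.0404) and 0.95 over both (adjusted p = 0.0497), below the 2-fold threshold. Another 2 regions of the locus, of 8.01 kb at chr2:64914115-64922128 and 4.53 kb at chr2:64946481-64951014, had a peak in every H and no C library. Over all regions 3.24% were gained in this sense. The 8.01 kb region also had a peak in HH 2, HH 3 and HHC 2. The 4.53 kb region also had one in the chow libraries CC_s 1 and CC_l 1 and in HC 1, HC 2, HH 1 and HH 2, and H 3 ranked there at the floor.

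After weight loss the same Grb14 region read 15.42, 15.67 and 14.78 in HC against 15.80, 14.77 and 14.27 in CC_s, which overlapped. In the long arm it read 16.35, 16.07 and 15.10 in HHC against 14.68 and 14.01 in CCC, which did not overlap. The difference was 1.49 (SE 0.58, adjusted p = 0.786) in the long arm and 0.92 (SE 0.37, adjusted p = 0.336) over both, or 1.23 without HC 3 and HHC 3 (adjusted p = 0.0882). Over the whole locus HHC read 17.27, 17.53 and 17.80 against 16.37 and 14.11 in CCC, and HC 16.93, 16.91 and 16.44 against 17.09, 16.21 and 15.80 in CC_s. The long-arm difference of 2.30 (SE 0.70, adjusted p = 0.855) rested in part on CCC 2, whose 14.11 is close to the locus floor of 14.06.

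Pik3r1 encodes the regulatory subunits of phosphoinositide 3-kinase, and its gene lies at chr13:101680563-101768217 on the minus strand. In chow libraries 1 peak spanned nearly the whole gene, and this block was broken up under HFD. Its promoter is shown together with windows of 200 bases around 2 summits. One lies upstream of the promoter and was the summit of a peak in 17 libraries. The other is an intronic summit 39.74 kb inside the gene that was found in 7 libraries, all from HFD or former HFD mice (2 of H, 2 of HC and 3 of HH). The windows lie at chr13:101768168-101768467, chr13:101768667-101768866 and chr13:101728378-101728577, all on the minus strand, with capitals as before.
Pik3r1 promoter: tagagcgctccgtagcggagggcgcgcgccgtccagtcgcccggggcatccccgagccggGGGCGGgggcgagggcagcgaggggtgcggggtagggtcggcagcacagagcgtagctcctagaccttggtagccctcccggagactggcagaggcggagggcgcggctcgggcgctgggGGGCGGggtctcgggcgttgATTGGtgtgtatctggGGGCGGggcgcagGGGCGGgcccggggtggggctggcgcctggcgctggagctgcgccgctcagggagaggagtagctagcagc
Pik3r1 promoter summit: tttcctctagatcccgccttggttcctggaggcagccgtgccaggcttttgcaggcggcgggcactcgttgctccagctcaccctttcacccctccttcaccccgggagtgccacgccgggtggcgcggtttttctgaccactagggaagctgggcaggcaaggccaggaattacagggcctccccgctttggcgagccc
Pik3r1 intron summit: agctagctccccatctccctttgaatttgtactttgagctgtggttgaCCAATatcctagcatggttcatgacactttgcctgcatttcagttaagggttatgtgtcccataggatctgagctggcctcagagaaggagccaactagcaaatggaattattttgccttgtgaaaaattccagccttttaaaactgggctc
The promoter was 75.7% GC and held 4 GC boxes and 1 CCAAT, the upstream summit was 65.0% GC with no match, and the intron summit was 44.0% GC with a CCAAT. Over all promoter windows 35.7% held GGGCGG and 37.4% held CCAAT. A peak has a single summit, so a wide block hides the others within it.

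The longest peak in the Pik3r1 locus was 96.6, 95.5 and 93.3 kb in C, and 30.1, 15.3 and 53.6 kb in H. It was 93.8 and 96.1 kb in CC_l, and 15.9, 56.0 and 31.4 kb in HH. No HFD library reached the length of any chow library. This measure was chosen after the values were seen. Peak length was not scaled between libraries. Over all loci the longest peak was shorter without overlap in 13.4% for H against C and 9.06% for HH against CC_l, and longer in 5.52% and 4.83%. For H and HH together against C and CC_l it was shorter in 1.36% (256 of 18850) and longer in 0.515%. Pik3r1 was the only 1 of the 9 that was shorter in that comparison. In the same way Irs1 was shorter without overlap in H against C, with 19.3, 32.0 and 48.7 kb in C and 14.2, 13.5 and 14 kb in H, but not in HH.

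**Figure D3:**
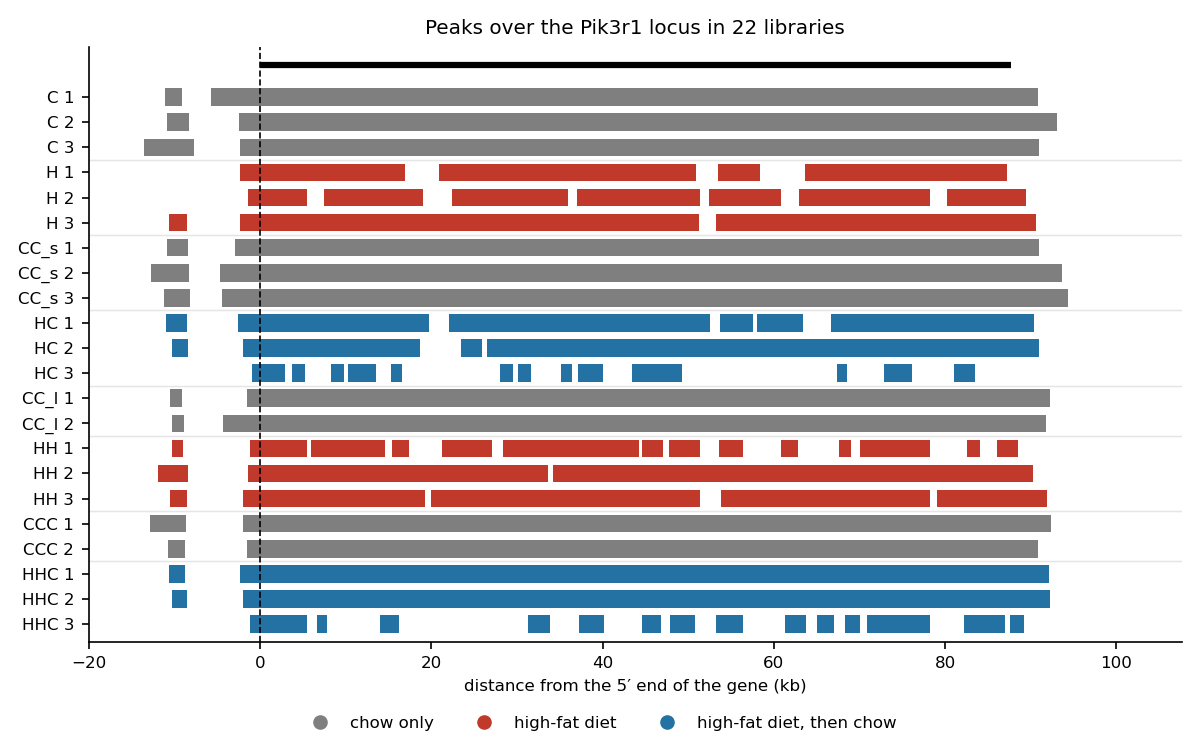
Peaks over the Pik3r1 locus in each of the 22 libraries (horizontal bars; x axis, distance from the 5′ end in kb along the gene's strand; black bar on top, gene span; dashed line, 5′ end; grey, chow only; red, HFD; blue, HFD then chow). A block of 92.4 to 98.7 kb stands in each chow library, is broken in all H, HH and HC libraries and in HHC 3, and stands in HHC 1 and HHC 2.

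The signal of the Pik3r1 locus fell with the block. It read 21.37, 21.49 and 20.68 in C and 19.88, 20.08 and 20.53 in H. It read 21.21 in both CC_l libraries and 20.46, 20.47 and 20.33 in HH. HFD and chow libraries did not overlap in either arm. The difference was -1.02 (SE 0.25, adjusted p = 0.0460, 2.02-fold lower) at 12 weeks, -0.79 (SE 0.10, adjusted p = 0.0715, 1.73-fold lower) at 25 weeks and -0.90 (SE 0.16, adjusted p = 0.00609, 1.87-fold lower) over both. Without HH 1 it was -0.81 at 25 weeks (adjusted p = 0.0393) and -0.91 over both (adjusted p = 0.00863). The call at 12 weeks was lost without C 1 (adjusted p = 0.105), H 1 (0.140), C 2 (0.150) or H 2 (0.143), while that over both durations was kept without any single library and was -0.47 (adjusted p = 0.0867) on the maximum signal. The percent of the locus covered differed by only -1.92 points (SE 3.87, adjusted p = 0.811), and shorter peaks lay within the span of the block. At the promoter Pik3r1 read 21.32, 21.27 and 20.34 in C, 19.04, 18.52 and 20.43 in H, 21.40 and 20.88 in CC_l, and 19.42, 20.44 and 19.50 in HH, with H 3 above C 3 and otherwise no overlap within an arm. The difference there over both durations was -1.50 (SE 0.37, adjusted p = 0.0576), where 3.99% of all promoters passed and none of the 9 did.

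After weight loss Pik3r1 read 19.71, 20.16 and 19.81 in HC against 21.34, 20.92 and 21.48 in CC_s. In the long arm it read 21.18, 20.32 and 20.35 in HHC against 21.48 and 21.24 in CCC. HC lay below CC_s by a wide margin, and HHC lay below CCC with HHC 1 close to it. The difference was -1.35 (SE 0.19, adjusted p = 0.241, 2.55-fold lower) in the short arm, -0.74 (SE 0.29, adjusted p = 0.855) in the long arm and -1.05 (SE 0.18, adjusted p = 0.0937, 95% interval -1.40 to -0.69) over both. Without HC 3 and HHC 3 it was -0.96 (adjusted p = 0.103). It passed without HHC 1 (-1.19, adjusted p = 0.0463) and where all 22 libraries shared 1 estimate of the spread (adjusted p = 0.00948), a setting in which 2.26% of all loci passed. The weight loss effect minus the obesity effect was -0.14 (SE 0.26, adjusted p = 0.849, 95% interval -0.64 to 0.36), which leaves room for a difference in either direction. The longest peak was 30.5, 64.5 and 5.8 kb in HC against 93.9, 98.4 and 98.7 kb in CC_s, without overlap. Of all loci 6.82% were shorter in this way and 0.941% longer. In the long arm it was 94.4, 94.1 and 7.4 kb in HHC against 94.4 and 92.4 kb in CCC, which overlapped. There 4.39% of all loci were shorter without overlap and 3.66% longer. Without HH 1, HC 3 and HHC 3 the longest peak was still shorter than in the controls in HH and HC, and it was as long as theirs in HHC. At the promoter the difference after weight loss was -1.57 (SE 0.38, adjusted p = 0.304), or -1.29 without HC 3 and HHC 3 (adjusted p = 0.415), where 0% of all promoters passed in limma. An unadjusted p under 0.05 was found for 9.36% of promoters and 2 of the 9 genes.

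The region that holds the Pik3r1 block, chr13:101673910-101773965 (100.06 kb), was the only 1 of 23 regions tested in the 9 loci that passed after weight loss over both durations, against 0.105% of all regions. It read 19.77, 20.08 and 19.63 in HC against 21.24, 21.27 and 21.59 in CC_s. It read 20.97, 20.53 and 20.22 in HHC against 21.55 and 21.04 in CCC. Neither pair overlapped, although HHC 1 was within 0.1 of CCC 2. The difference was -1.13 (SE 0.17, adjusted p = 0.0457). It was lost without HC 1, CC_s 2, HC 2, CC_s 3, HC 3 or HHC 2 (adjusted p = 0.151, 0.120, 0.0742, 0.151, 0.0537 and 0.104), and without CCC 1 it was -1.0 (adjusted p = 0.0276), which no longer exceeds the 2-fold threshold. Without HC 3, HHC 3 and HH 1 it was -0.99 (adjusted p = 0.0225), and on the maximum signal -0.40 (adjusted p = 0.217). In single pairs it was -1.53 in HC against CC_s (SE 0.17, adjusted p = 0.0689) and -0.72 in HHC against CCC (SE 0.29, adjusted p = 0.801). In obesity it was -1.08 in H against C (SE 0.20, adjusted p = 0.0143), which was lost without C 1, H 1, C 2 or H 2 (adjusted p = 0.0648, 0.0689, 0.0798 and 0.0716), and -0.78 in HH against CC_l (SE 0.13, adjusted p = 0.162).

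**Figure D4:**
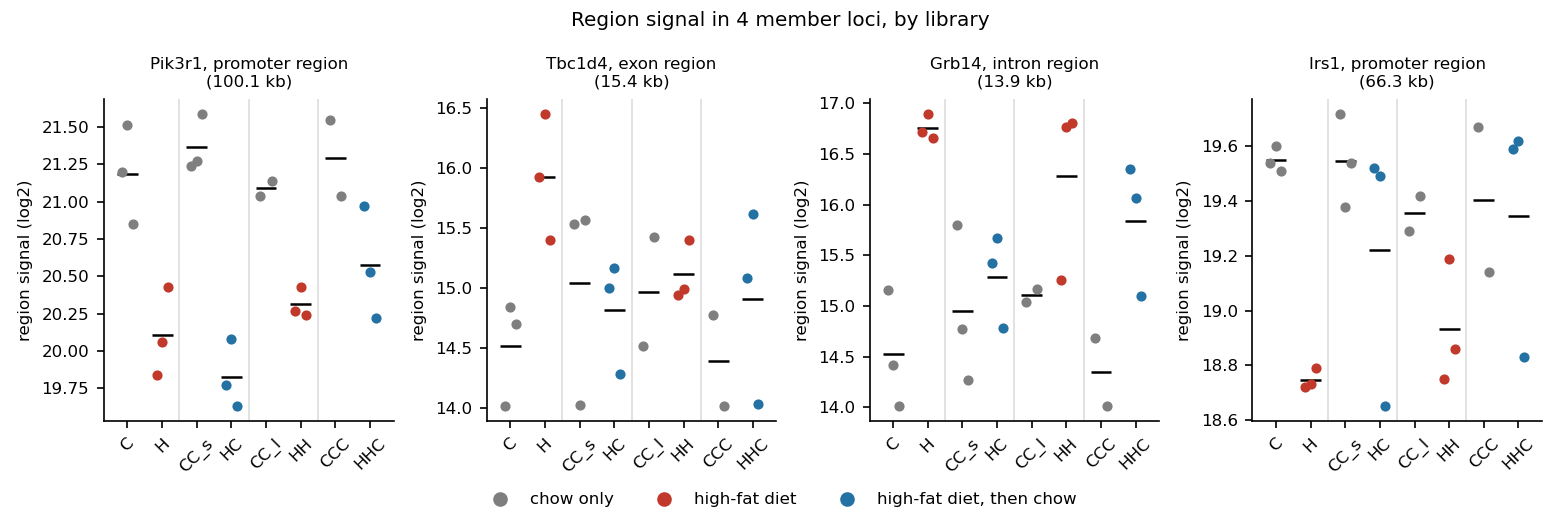
Rank-mapped log2 signal of 4 regions, at Pik3r1, Tbc1d4, Grb14 and Irs1, in each library by group (grey, chow only; red, HFD; blue, HFD then chow; black bar, group mean). The Pik3r1 region is lower in HC (19.63 to 20.08) than in CC_s (21.24 to 21.59), and the Grb14 region is higher in H (16.66 to 16.90) than in C (14.01 to 15.16).

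Akt2 encodes the AKT kinase that carries the metabolic response to insulin in adipocytes (chr7:27591552-27640826, plus strand). Its locus read 19.56, 19.60 and 19.65 in C, 19.72, 20 and 19.82 in H, 19.75 and 19.49 in CC_l, and 19.60, 19.90 and 20 in HH. H lay just above C, and HH 1 lay between the CC_l libraries. The difference over both durations was 0.23 (SE 0.10, adjusted p = 0.132), and 0.29 without HH 1 (adjusted p = 0.0401). On the maximum signal it was -0.02 (adjusted p = 0.962). After weight loss it was 0.10 (SE 0.14, adjusted p = 0.694), or 0.25 without HC 3 and HHC 3 (adjusted p = 0.335).

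Tbc1d4 encodes the Rab GTPase-activating protein also known as AS160 (chr14:101442360-101609191, minus strand). Its locus read 20.18, 19.91 and 19.87 in C, 19.91, 20.19 and 20.37 in H, 19.62 and 19.96 in CC_l, and 19.67, 19.99 and 20.39 in HH, with overlap in both arms. The difference was 0.20 (SE 0.14, adjusted p = 0.375) over both durations, or 0.29 without HH 1 (adjusted p = 0.149), and -0.25 (SE 0.17, adjusted p = 0.504) after weight loss, or -0.15 without HC 3 and HHC 3 (adjusted p = 0.742). A region of 15.36 kb within the gene, chr14:101475300-101490656, read 14.01, 14.84 and 14.70 in C and 15.92, 16.45 and 15.40 in H, without overlap. It was higher by 1.40 (SE 0.35, adjusted p = 0.0315) at 12 weeks. The call was lost without any single library other than H 3 (adjusted p = 0.105 without C 1, 0.107 without H 1, 0.0986 without C 2, 0.110 without H 2 and 0.0741 without C 3), and the C value of 14.01 is the floor. In HH against CC_l the same region differed by 0.14 (SE 0.41, adjusted p = 0.894). Of the Tbc1d4 locus, 8.9 kb (4.31%) lay in a peak in every CC_s and in no HC library, against 0.544% over all loci. Without HC 3 this was 9.1 kb (4.38%, against 0.602%). The longest peak in the locus was 28.3, 26.8 and 2.7 kb in HC against 32.9, 42.8 and 102 kb in CC_s. It was shorter without overlap, with or without HC 3. Together with Pik3r1 this made 2 of the 9 loci, against 6.82% of all loci (0.941% were longer), by the measure that was chosen after the values were seen.

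Slc2a4 encodes GLUT4, the insulin-regulated glucose transporter (chr11:69942539-69948188, minus strand). Its locus read 19.42, 19.40 and 19.53 in C, 19.22, 18.77 and 19.39 in H, 19.33 and 19.20 in CC_l, and 19.11, 19.29 and 19.06 in HH. H lay below C without overlap by a narrow margin, and HH overlapped CC_l. The difference over both durations was -0.22 (SE 0.11, adjusted p = 0.221), or -0.21 without HH 1 (adjusted p = 0.261). The region that holds the gene, chr11:69893442-69954154 (60.71 kb), differed by -0.28 (SE 0.08, adjusted p = 0.0407), below the 2-fold threshold, and this region also covers the promoters of 6 other protein-coding genes, Acap1, Eif5a, Gps2, Neurl4, Ybx2 and 2810408A11Rik. After weight loss the locus differed by -0.21 (SE 0.26), with HHC 3 at 17.91 and every other library at 18.77 or above. Without HC 3 and HHC 3 it differed by 0.06 (adjusted p = 0.852).

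Foxo1 encodes the forkhead transcription factor that insulin signalling holds in the cytoplasm (chr3:52268336-52353221, plus strand). Its promoter, chr3:52268087-52268386 on the plus strand, is shown as the start of the 1 locus that passed upwards over both durations. Capitals mark motifs as before.
Foxo1 promoter: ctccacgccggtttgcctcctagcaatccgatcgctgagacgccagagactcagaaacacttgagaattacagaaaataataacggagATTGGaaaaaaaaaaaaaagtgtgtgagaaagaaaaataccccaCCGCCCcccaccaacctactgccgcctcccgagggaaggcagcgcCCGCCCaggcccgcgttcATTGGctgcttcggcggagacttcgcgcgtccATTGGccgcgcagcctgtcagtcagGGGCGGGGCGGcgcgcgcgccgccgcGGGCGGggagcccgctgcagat
The window was 61.3% GC and held 5 GC boxes and 3 CCAAT matches, and in 17 libraries a summit lay at position 185. None of the 5 promoters printed held TATAAA (13.6% of all windows), the forkhead motif GTAAACA (3.65%), the AP-1 motif TGANTCA (7.81%) or the PPAR direct repeat (0.381%), which says only that these letters are not in these windows.

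The Foxo1 locus read 19.36, 19.58 and 20.03 in C and 20.13, 20.27 and 20.62 in H. It read 19.99 and 19.89 in CC_l and 20.21, 20.41 and 20.60 in HH. All HFD libraries lay above all chow libraries of these 4 groups. The difference was 0.69 (SE 0.20, adjusted p = 0.0717) at 12 weeks, 0.47 (SE 0.14, adjusted p = 0.289) at 25 weeks and 0.58 (SE 0.14, adjusted p = 0.0221, 1.49-fold higher) over both. Without HH 1 it was 0.63 over both (adjusted p = 0.0174). The call was lost without C 2 (adjusted p = 0.0532), CC_l 1 (0.0748) or CC_l 2 (0.0990), and with each library scaled by its summed signal the difference was 0.37 (adjusted p = 0.264). It reversed to -0.06 (adjusted p = 0.846) on the maximum signal. The locus was higher in its sum and not in its peak heights, and its covered percent differed by 13.56 points (SE 3.97, adjusted p = 0.0654), or 15.69 without HH 1 (adjusted p = 0.0298). After weight loss Foxo1 read 19.73, 20.24 and 19.69 in HC against 20.03, 19.51 and 19.76 in CC_s, and 19.78, 19.82 and 19.33 in HHC against 19.78 and 20.08 in CCC, with overlap in both arms. The difference was -0.09 (SE 0.16, adjusted p = 0.785, 95% interval -0.39 to 0.22), or 0.04 without HC 3 and HHC 3 (adjusted p = 0.916). The weight loss effect minus the obesity effect was -0.66 (SE 0.22, unadjusted p = 0.00708, adjusted p = 0.319, 95% interval -1.09 to -0.24), the only 1 of the 9 loci with an unadjusted p under 0.05 in that test.

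**Figure D5:**
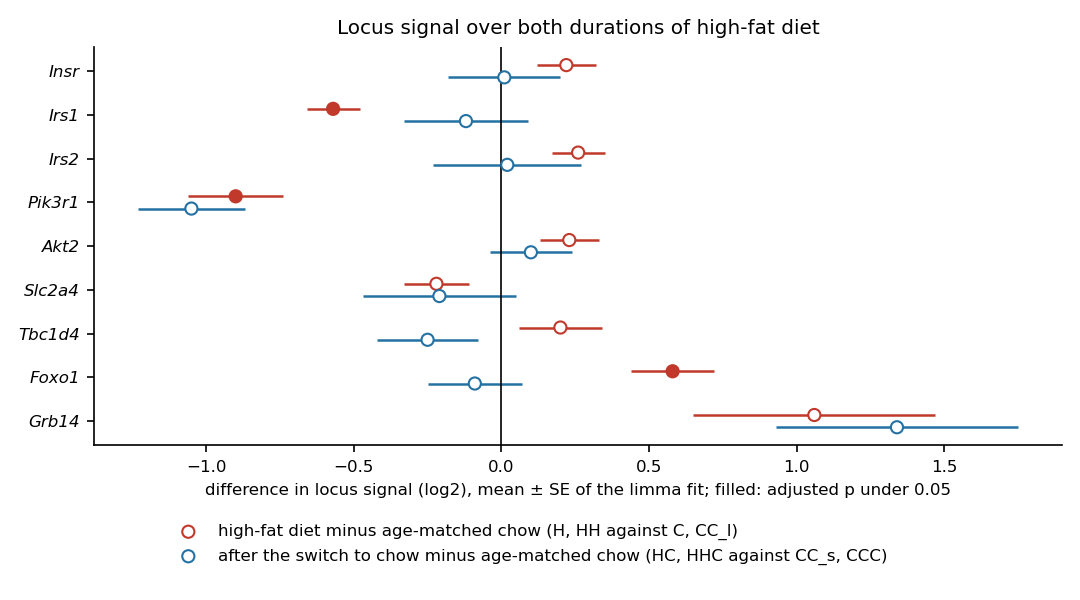
Log2 differences of locus signal for the 9 genes, in obesity (H and HH against C and CC_l) and after weight loss (HC and HHC against CC_s and CCC), averaged over both durations (points, estimates; bars, SE; filled, adjusted p under 0.05 in limma). Irs1 (-0.57), Pik3r1 (-0.90) and Foxo1 (0.58) are filled in obesity and no gene is filled after weight loss, where Pik3r1 is at -1.05.

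The rest of the pathway was read from a list of 60 other genes, of which 59 loci could be tested. In obesity over both durations 13 of the 59 passed, 5 higher (among them Gsk3a, Gsk3b, Pdpk1 and Phlpp1) and 8 lower (among them Foxo4, Gys1, Igf1r, Sh2b2, Shc1, Socs1 and Stx4a), against 15.3% of all loci. Their median difference was -0.14, against -0.02 over all loci, and 26 had an unadjusted p under 0.05, against 31.6% of all loci. Pdpk1, the kinase that phosphorylates AKT in its activation loop, was higher by 0.77 (SE 0.14, adjusted p = 0.00779), with 18.34, 18.67 and 18.88 in C, 19.69, 19.52 and 19.54 in H, 18.77 and 18.97 in CC_l and 19.04, 19.68 and 19.66 in HH. HFD and chow libraries did not overlap, and without HH 1 the difference was 0.88 (adjusted p = 0.00205). Gsk3a, a kinase that AKT inhibits, was higher by 0.32 (SE 0.08, adjusted p = 0.0256), or 0.30 without HH 1 (adjusted p = 0.0308).

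Stx4a, the plasma membrane syntaxin at which GLUT4 vesicles fuse, was lower by 0.71 on the log2 scale (difference -0.71, SE 0.11, adjusted p = 0.00325), with 19.26, 19.44 and 19.10 in C, 18.71, 18.44 and 18.75 in H, 19.45 in both CC_l libraries and 18.47, 18.85 and 18.65 in HH. No HFD library reached a chow library. Shc1, an adaptor to the mitogenic branch, differed by -1.23 (SE 0.24, adjusted p = 0.00900) and Gys1, glycogen synthase, by -0.32 (SE 0.07, adjusted p = 0.0193). Without HH 1 the differences of Stx4a, Shc1 and Gys1 were -0.67, -1.14 and -0.32, and all still passed (adjusted p = 0.00398, 0.0134 and 0.0200). After weight loss none of the 59 passed in limma, against 0.0438% of all loci, and 5 had an unadjusted p under 0.05, against 13.4%. The smallest p among higher loci was that of Enpp1, which encodes an ectoenzyme that binds the receptor, with all 5 CC_s and CCC libraries at the floor of 14.06, 15.14, 14.77 and 17.37 in HC and 15.68, 16.15 and 17.69 in HHC. The highest values were in HC 3 and HHC 3. The difference was 2.07 (SE 0.52, adjusted p = 0.182), or 1.38 without those libraries (SE 0.17, adjusted p = 0.0289, with 0.229% of all loci called). Both values depend on the floor. Enpp1 entered the test only through its weight loss libraries, and its controls had no spread, so these SEs and p-values do not support a difference. The chow group C read 15.94, 14.50 and 14.16, with C 1 above HC 1 and HC 2. Among lower loci it was that of Rps6kb1, the S6 kinase, which differed by -1.48 (SE 0.33, adjusted p = 0.154), or -1.20 without HC 3 and HHC 3 (adjusted p = 0.151).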

How the data were processed

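ATAC-seq of labelled epididymal adipocyte nuclei gave 22 libraries in 8 groups, grouped by their labels. The deposited lists hold peaks called per library by the authors, with total and maximum signal (coverage, not normalised between libraries). Per the submitters' processing notes, Trim Galore 0.6.6, Bowtie2 2.4.4, SAMtools 1.13, bedtools 2.30 and SEACR 1.3 (stringent, threshold 0.01) were used on GRCm38. SEACR merges neighbouring covered stretches, so a deeper library can join peaks, and total signal grows with width.

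Total signal of peaks overlapping each locus (GENCODE vM21 span, 20 kb flanks) was summed and rank-mapped across libraries on the log2 scale, with a floor of 14.06 for loci without a peak or too low in rank. Promoters (2000 bp each side of start sites), 104657 regions merged at 1 bp and the percent of each locus covered were treated likewise (the last by quantile normalisation). The study's test compares read counts; since the files hold signal, limma 3.58.1 in R 4.3.3 (trend, no replicate block) was used, in each pair and over both durations, with Benjamini-Hochberg adjustment over all features. A call is an adjusted p under 0.05, for regions also an absolute log2 difference above 1. Ranges run 1.96 SE either way and are narrow for so few libraries. The scripts were tested on simulated data. Python 3.11.15, numpy 2.4.6, pandas 2.3.3 and matplotlib 3.10.9 were used. The text names all 9 genes, the strongest and the called regions of each, and of the pathway list the 3 highest and 3 lowest loci by p, several of which are given as names or counts only; a few are not reported here.

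Promoter sequences are from RefSeq (GRCm38.p6), where 7 of the 9 genes matched (not Insr and Slc2a4), and summit windows from the GRCm38 genome. Motifs were searched on both strands. Alternatives were the library subsets, scalings, filters and flanks given in the closing section. The genes, lists and measures were chosen with earlier results of these data known. Replicates of a group shared 0 identical peaks.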

Additional observations from a re-analysis of the deposited data

How the results depend on the processing

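Of 3471 recomputed single values, 3369 kept their side of the threshold, 29 newly passed, 62 no longer passed and 11 turned with at least 1 of both values past an unadjusted p of 0.05. Among the 3369 are 331 whose sign changed with neither value past that p, and of 422 recomputed counts 352 stayed within 1.5 times. The maximum signal of a peak in place of its total ended most calls and turned these: Foxo1 locus -0.28 (H against C) and -0.06 (obesity), Irs2 -0.03, Akt2 -0.02, Grb14 after weight loss -0.17, the main regions of Slc2a4 0.11 and Foxo1 -0.31 (H against C), of Irs1 0.17 (HH against CC_l) and of Foxo1 -0.07 (obesity). Scaling each library by its summed signal turned Insr in obesity to -0.01, and leaving out HC 3, HHC 3 and HH 1 turned the Akt2 region after weight loss to 0.19. The causes were not tested.

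The share of all features called in the same setting stands in brackets. Loci called in H against C went from 3 (11%) to 0 (maximum signal 3.57%, replicate block 2.11%) or 1 (all 22 libraries 5.18%, no filter 4.44%), and in obesity from 3 (15.3%) to 0 (maximum 3.39%) or 6 (without the 3 libraries 20.2%). They went from 0 to 1 in HH against CC_l without the 3 libraries (0.998%) and, with all 22 libraries, in HC against CC_s (0.467%) and after weight loss (2.26%). Regions called in H against C went from 3 (8.28%) to 1 (20000 strongest peaks 5.46%) or 5 (scaled by summed signal 11.5%), and in HC against CC_s from 0 to 1 (without the 3, 0.244%). In obesity they went from 1 (4.21%) to 0 (20000 strongest 2.66%, maximum 4.05%), 2 (without the 3, 5.01%) or 4 (scaled 9.24%), and after weight loss from 1 (0.105%) to 0 (maximum 0.160%, replicate block 0%, scaled 0.00429%, without the 3 1.11%). Promoters in obesity went from 0 (3.99%) to 1 (scaled 3.90%), and covered loci from 1 (7.27%) to 0 (replicate block 0%) or 3 (without the 3, 9.42%). Pathway loci in obesity went from 13 (15.3%) to 0 (maximum 3.39%). After weight loss they went from 0 to 1 (without the 3, 0.229%), which was Enpp1 with its controls at the floor. Regions gained in H against C went from 3 (3.24%) to 1 (20000 strongest 2.88%, 50% covered 2.77%), and lost ones from 0 (2.27%) to 1 (50% covered 2.72%).

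Leaving out 1 library at a time gave 0 to 3 loci in H against C (1.17% to 7.92% of all loci), 0 to 1 in HH against CC_l (0% to 0.998%), 2 to 6 in obesity (6.24% to 20.2%, with 6 without HH 1) and 0 to 1 after weight loss (0% to 0.335%). It gave 0 to 3 regions in H against C (0.430% to 7.55%), 0 to 1 in HC against CC_s (0% to 0.244%), 0 to 2 in obesity (1.73% to 5.01%) and 0 to 1 after weight loss (0% to 0.279%). In obesity it gave 0 to 1 promoters (1.62% to 5.67%), 0 to 3 covered loci (1.84% to 9.42%) and 3 to 15 pathway loci (6.24% to 20.2%). Gained regions were 3 to 5 in H against C (3.73% to 5.02%), 0 to 2 in HH (2.72% to 5.59%), 0 to 1 in HC (0.354% to 1.98%) and 0 to 3 in HHC (0.968% to 1.84%). Lost ones were 0 to 1 in H (2.89% to 4.81%), HH (4.11% to 8.05%) and HHC (3.62% to 8.93%) and 0 in HC (1.84% to 3.63%).

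Same-numbered libraries did not deviate together (correlations of -0.21 to 0.14 over 13681 loci), so the numbers were not taken as pairs. With a replicate block, Irs1, Pik3r1 and Grb14 in H against C had adjusted p = 0.0560, 0.0965 and 0.0507, and Irs1 and Pik3r1 in obesity 0.0399 and 0.0578. Over all loci, obesity calls were 2727, with 603 on the maximum signal, 1058 with the block and 3571 without HH 1. With libraries scaled by summed signal 2627 passed, 1020 of them higher against 1523 otherwise, and the median of all loci moved from -0.02 to -0.13. Depth is not given, so a peak absent from a list may be below the calling threshold.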

Other observations

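In a description over the 22 libraries, with no test, the locus on another chromosome whose signal followed each gene most closely was Xbp1 for Pik3r1 (Pearson r = 0.91), Vegfa for Irs1 (0.88), Mcm10 for Irs2 (0.89), Large2 for Insr (0.92), Kpna4 for Akt2 (0.88), Prkd1 for Tbc1d4 (0.84), Zfp870 for Slc2a4 (0.90), 4930486L24Rik for Foxo1 (0.89) and Tmem19 for Grb14 (0.88). These are the highest of all loci, the libraries share their groups, and library quality enters both sides.

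Other pathway loci near to a difference after weight loss were Phlpp1, a phosphatase of AKT (0.68, SE 0.27, adjusted p = 0.343), Tbc1d1, the relative of Tbc1d4 (0.40, SE 0.16, adjusted p = 0.342), and Sh2b2, an adaptor at the receptor (-0.65, SE 0.32, adjusted p = 0.411). None passed. Without HC 3 and HHC 3 the differences were 0.48, 0.29 and -0.30.

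Of the 37 merged regions in the 9 loci, 8 had a peak in all 22 libraries (21.6%, against 11.8% of all regions), and 9 had a peak in a single library (24.3%, against 46.3%). Of 60 pathway genes, 46 had a promoter peak in all 22 libraries (76.7%), against 43.6% of all promoters.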
